A study of Mus musculus with 5 samples.

Results

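Snrnp70, Snrpb, Prpf4b and Cstf2 encode proteins that build the spliceosome, phosphorylate it or cut the 3' end of the transcripts it processes, and each was listed with altered splicing in mouse cortical neurons after PQBP1 knockdown. They were chosen by gene name from the authors' deposited table of alternative splicing events, whose entries were selected on the authors' p. They account for 11 splice junctions in 5 events, out of 1402 junctions in 585 events of 457 named genes. Junctions are counted per event, so the skipping junction of Snrnp70, listed in both of its events, counts each time. All 585 events have a junction with an authors' p under 0.05, so the table was itself made on the contrast described here. The folds and p-values of these genes are therefore given as a description and not as a test. None of the 4 genes encodes an mRNA decay factor. Decay factors enter further on, through lists of related genes.

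The neurons were dissected from cortices of C57BL/6 embryos at E16.5, received lentivirus and were 5 days in vitro at collection. PolyA RNA was sequenced from 3 mock knockdown samples, whose virus carried a non-targeting control shRNA, and from 2 PQBP1 knockdown samples, whose virus carried a shRNA against PQBP1. No label tells if the replicates were independent cultures, and the authors' p-values may thus measure technical spread. The table holds 1 log2 fold (knockdown over control) and 1 p per junction and no value for any single sample, so no standard deviation, depth or replicate value can be set beside them. It has no row for Pqbp1 and no gene levels, so neither the knockdown nor neuronal markers could be checked here.

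PQBP1 is found in the nucleus, where it binds spliceosome proteins. The spliceosome is assembled from small nuclear ribonucleoproteins (snRNPs), each a small RNA held by a ring of Sm proteins and by proteins of its own. Snrpb encodes the Sm proteins B and B', and Snrnp70 encodes a protein specific to the U1 snRNP, the particle that recognises the donor site at the start of an intron. Prpf4b encodes a kinase that phosphorylates spliceosome proteins. Cstf2 encodes the RNA-binding subunit of the cleavage stimulation factor, which acts where the messenger is cut and polyadenylated. Many genes of splicing factors carry poison exons, which bring an early stop codon into the messenger and can direct it to nonsense-mediated decay.

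Exons joined by the listed junctions in Snrnp70, Snrpb and Prpf4b are shown. In annotated decay transcripts they carry or lead to an early stop codon. The sequences are in transcript direction, from GENCODE M21 transcripts on mm10, with the annotated stop codon in capitals. The Snrnp70 stretch (chr7:45383159-45383184, minus strand) and the Snrpb stretch (chr2:130176695-130176752, minus strand) run from the start of the alternative exon to its stop. For Snrpb this is the exon form of 124 nt. For Snrnp70 the stop is annotated in the exon form of 60 nt. The Prpf4b exon (chr13:34893317-34893422, plus strand) has no stop in the annotated frame, and the stop lies in the next exon (chr13:34893761-34893825), printed to that codon.
Snrnp70 exon start: ccaccacgcagctggcttgcagcTGA
Snrpb exon start: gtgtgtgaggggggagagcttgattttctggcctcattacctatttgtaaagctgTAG
Prpf4b alternative exon: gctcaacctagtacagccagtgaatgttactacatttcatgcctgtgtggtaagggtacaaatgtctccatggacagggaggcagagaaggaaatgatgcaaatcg
Prpf4b next exon: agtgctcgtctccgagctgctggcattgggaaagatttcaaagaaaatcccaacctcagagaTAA

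The alternative exons of Cstf2 are coding, and the transcript that holds both is annotated as protein-coding. They lie on chromosome X, plus strand, at chrX:134072415-134072474 (60 nt) and chrX:134072678-134072764 (87 nt). Together they add 147 nt, or 49 codons. A splice variant of Cstf2 with extra exons in this stretch is known from nervous tissue.
Cstf2 exon of 60 nt: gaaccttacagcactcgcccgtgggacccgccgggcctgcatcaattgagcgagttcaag
Cstf2 exon of 87 nt: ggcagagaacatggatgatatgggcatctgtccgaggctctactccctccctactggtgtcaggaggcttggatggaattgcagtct

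**Figure D1:**
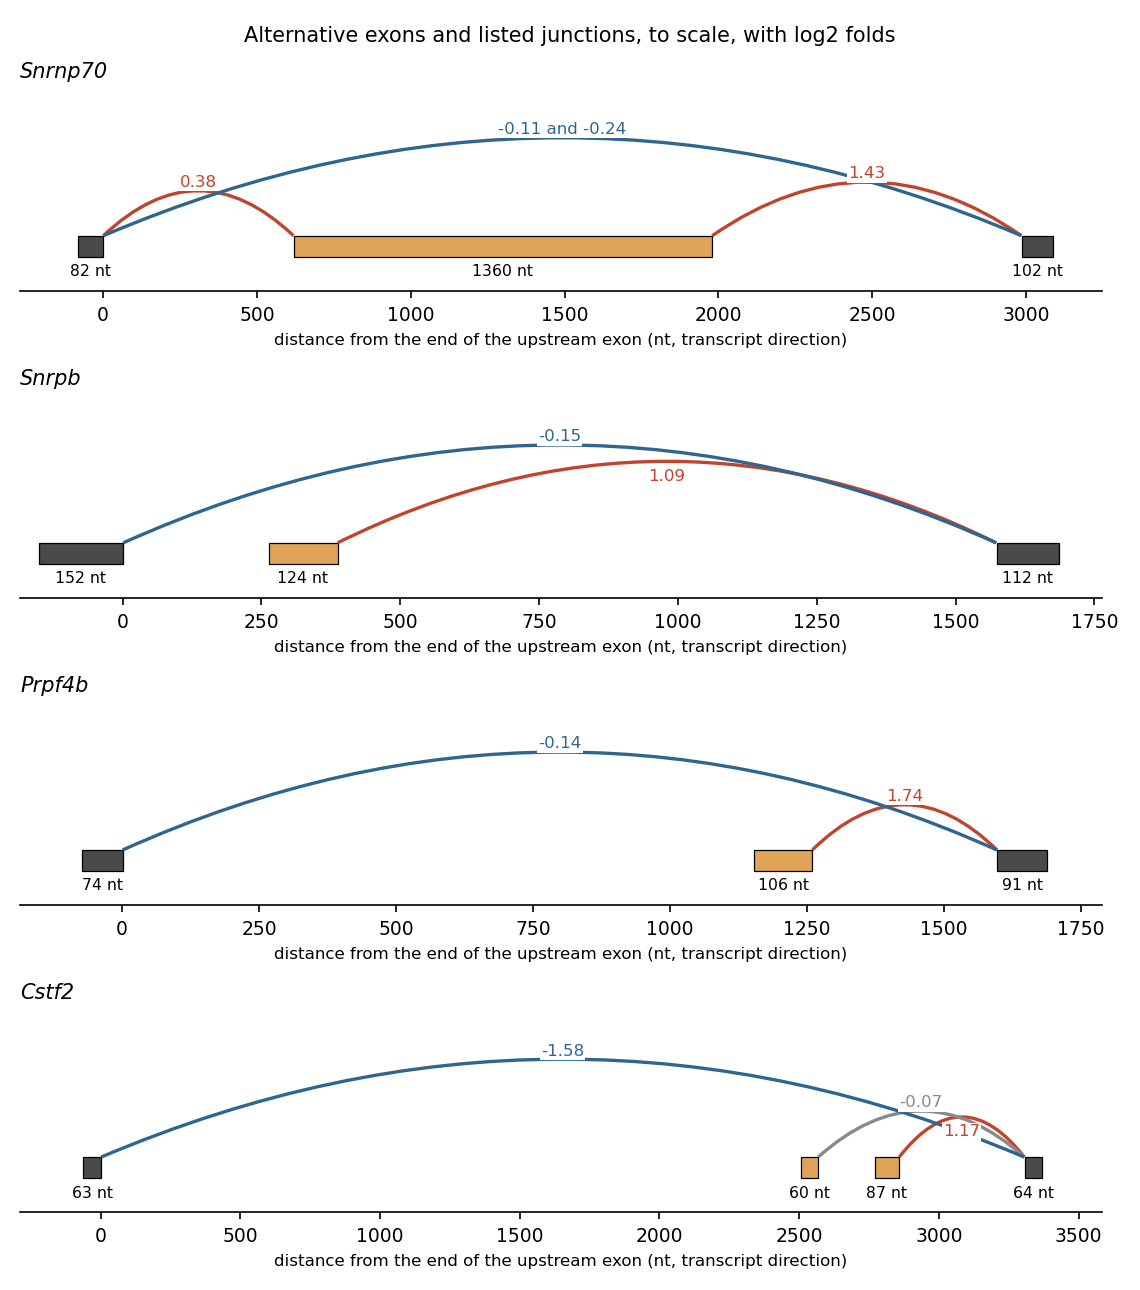
Maps of the 4 genes around the listed junctions, to scale, with the distance from the end of the upstream exon in nt on the x axis. Grey boxes are flanking exons, orange boxes alternative exons, and arcs are junctions with the authors' log2 fold (red up and blue down at p under 0.05, grey not). In Snrnp70, Snrpb and Prpf4b the arcs from or to the orange exon are up, and the skipping arc is down by -0.11 to -0.24. In Cstf2 the skipping arc is down by -1.58.

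Snrpb, the gene of the core Sm proteins B and B', used the junction from an alternative exon more after knockdown. In the authors' deposited table, the junction from this exon to the following coding exon (intron chr2:130175442-130176628) had a log2 fold of 1.09 and the skipping junction one of -0.15 (p = 0.00816). The ratio of inclusion to skipping was thus 2.37 times that of the mock knockdown. The skipping junction belongs to the protein-coding transcript. The inclusion junction is annotated in a decay and a retained-intron transcript alone. The exon is annotated with lengths of 122 and 124 nt, from acceptor sites 2 nt apart, and neither length is a multiple of 3. The stop codon printed above is annotated in the form of 124 nt. It lies 596 nt ahead of the last exon junction of the annotated decay transcript. The form of 122 nt belongs to the retained-intron transcript, which has no annotated reading frame. The listed junction leaves both forms and the junctions into them have no row, so which form rose is not known.

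Prpf4b, the spliceosome kinase, had the largest change of the ratio among the 2-junction events of these genes. The log2 fold in the authors' deposited table was 1.74 for the junction out of the exon of 106 nt and -0.14 for the skipping junction (p = 0.0081). That puts the ratio of inclusion to skipping at 3.67 times the mock ratio. An exon of 106 nt shifts the reading frame, and the annotated stop follows 62 nt into the next exon, 466 nt ahead of the last exon junction. The transcript that holds this exon is annotated as a decay target and starts inside the upstream exon, so its frame is that of the annotation. For Prpf4b and Snrpb the table lists the event from the downstream side alone. It has no row for the junction into either exon.

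Snrnp70, the gene of the U1-specific protein, was listed from both sides of an intron of 2985 nt, and both sides moved towards inclusion. On the downstream side, the junction leaving an alternative exon of 1360 nt (intron chr7:45380819-45381824) had a log2 fold of 1.43 in the authors' deposited table, against -0.11 for skipping (p = 0.00662). On the upstream side, the junction entering that exon (intron chr7:45383185-45383803) had a log2 fold of 0.38 in the authors' deposited table, against -0.24 for skipping (p = 0.00966). The ratio of inclusion to skipping was 2.92 times the mock ratio downstream and 1.54 times upstream. Whether the sides differ could not be tested without replicate values. They do not read out the same set of transcripts. The acceptor of the upstream junction opens 3 annotated exons, of 60 nt, of 1360 nt and of 2468 nt. The last of them runs on into the next coding exon. The donor of the downstream junction ends the exon of 1360 nt alone, and the table has no row for the donor of the exon of 60 nt. All 3 exons begin with the bases printed above. In the annotated decay transcript with the exon of 60 nt, the stop in them lies 224 nt ahead of the last exon junction. The junction leaving the exon of 1360 nt is annotated in a retained-intron transcript alone. That transcript has no annotated reading frame, so no stop is annotated for the exon of 1360 nt. The same skipping junction has a different fold in each of the 2 events.

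The donor sites of both junctions in the downstream Snrnp70 event are shown as the last 3 exon and first 6 intron bases, with the GT that starts the intron in capitals. The donor of the exon of 60 nt, which joins the same acceptor in the annotated decay transcript, is not listed in the table and is not shown. The junction from the alternative exon rose and the one from the coding exon fell.
Snrnp70 donor of the 1360 nt exon: tcgGTaaat
Snrnp70 donor of the coding exon before it: actGTgagt

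**Figure D2:**
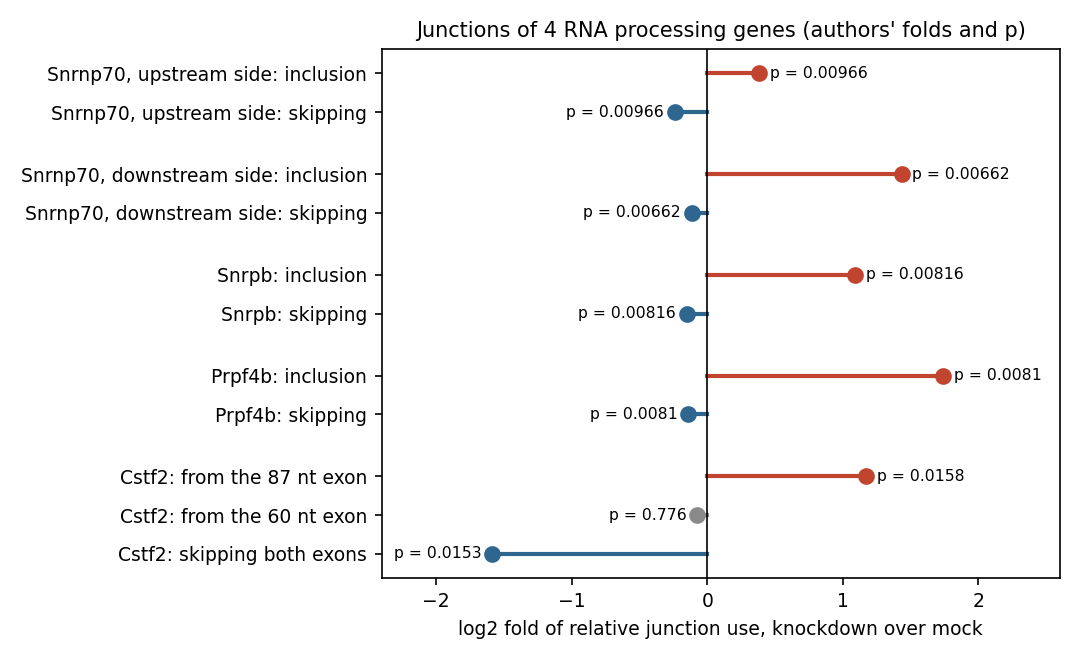
Log2 fold of relative junction use, knockdown over mock, on the x axis for each of the 11 junctions, with the authors' p beside each point. Red and blue points have p under 0.05 and the grey point has not. The 4 inclusion junctions of Snrnp70, Snrpb and Prpf4b lie between 0.38 and 1.74.

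The folds also allow a reading of how often each inclusion junction was used relative to skipping. In all 408 events of 2 junctions the junctions have the same p and opposite signs, so the fold is read as a change of relative use within the event. If the uses of both junctions add up to the whole in each group, the Snrpb inclusion junction made up 8.03% in mock and 17.1% in knockdown. The same reading gives 3.80% and 12.7% for Prpf4b. For Snrnp70 it gives 4.25% and 11.5% downstream, and 33.4% and 43.5% upstream. The Snrnp70 junction from the exon of 60 nt has no row, so the downstream values are shares of the listed junctions and not of all messengers. Of the 2 listed junctions, skipping was thus the more frequent in both groups in each of these events. On this reading inclusion changed by 7.23 to 10.1 percentage points, with the smallest step in the downstream and the largest in the upstream event of Snrnp70. These values carry no error, since the table gives none.

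**Figure D3:**
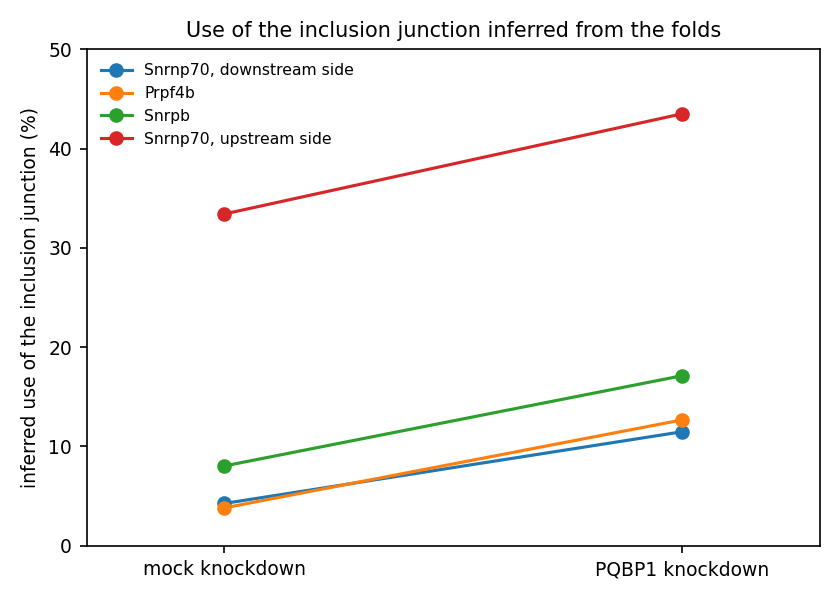
Use of the inclusion junction in percent on the y axis, inferred from the authors' folds for mock and PQBP1 knockdown, with 1 line per 2-junction event and no error bars because no replicate values exist. The upstream Snrnp70 event starts at 33.4%, and the other 3 events start between 3.80% and 8.03%.

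Cstf2, the cleavage factor gene, had an event of 3 junctions that share 1 acceptor. The junction that skips both alternative exons (intron chrX:134069908-134073213) had a log2 fold of -1.58 in the authors' deposited table (p = 0.0153). The junction from the exon of 87 nt had a log2 fold of 1.17 in the authors' deposited table (p = 0.0158). For the junction from the exon of 60 nt, the log2 fold in the authors' deposited table was -0.07 (p = 0.776), which did not pass. Relative to skipping, the junction from the 87 nt exon was at 6.76 times the mock ratio and that from the 60 nt exon at 2.85 times. This fall of skipping was the largest among the 11 junctions by log2 fold. With 3 junctions the folds do not fix the uses. If the uses of the 3 add up to the whole, the skipping junction made up at most 65.3% in mock and at most 21.8% in knockdown. The junction from the 87 nt exon then made up between 3.81% and 34.7% in mock, and that from the 60 nt exon at most 96.2%. The limits of 3.81% and 96.2% rest on the fold of the 60 nt junction, which did not pass.

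The Cstf2 event covers part of the messengers of the gene. The next exon has 2 annotated acceptors 78 nt apart, and all 3 listed junctions end at the downstream one. No listed junction of the gene enters either alternative exon. Whether messengers with the exon of 87 nt also held that of 60 nt is thus not known. The upstream acceptor, used by other protein-coding transcripts, has no row in the table, so total skipping of the exons is not known. The junction from the 60 nt exon directly to the downstream acceptor is not annotated, and it is the only one of the 11 that is not. Cstf2t, a related gene of a single exon, gives no spliced reads in its annotated form. The 3 donors that compete for the acceptor are shown in the same form as those of Snrnp70.
Cstf2 donor before both exons: aagGTaaat
Cstf2 donor of the 60 nt exon: aagGTaccc
Cstf2 donor of the 87 nt exon: tctGTaagg

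Of the 11 junctions, 10 had an authors' p under 0.05, against 76.2% of the 1389 junctions of the table that have a p. Nothing can be read from this count, since the events were listed for such a p. By p the Snrnp70, Prpf4b and Snrpb events stand at ranks 112 to 147 of the 585 events, and Cstf2 at rank 204. The sizes of change were spread over the range of the table. The median absolute change of the ratio over the 408 events of 2 junctions was 1.36 in log2 units (interquartile range, 1.01 to 1.74). Prpf4b, with a change of 1.88, lay above that range. The downstream Snrnp70 event (1.55) and Snrpb (1.24) lay inside it. The upstream Snrnp70 event (0.62) lay below it, at rank 393 of the 408 by size. Cstf2, with 3 junctions, has no value in this measure.

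The direction was the same in all 4 events of 2 junctions, towards the nearer junction, which here is the one that includes the exon. Over the table, 42.9% of such events moved to the nearer junction. In all 4, the rising junction is annotated in non-coding or decay transcripts alone, while the falling one belongs to a protein-coding transcript. The falling Prpf4b junction is also part of 2 transcripts annotated as decay targets. That pattern was found in 13.0% of the 408 events. These counts rest on the contrast that made the table, come from 3 genes and were not tested. Other genes had the same pattern. Among events with 1 junction of each kind, leaving Snrnp70, Snrpb and Prpf4b out, the junction of the non-coding or decay transcripts rose in 49 of 63 (77.8%). Whether this pattern goes along with rarity of the junction was not counted. The rarer junction, by its mean inferred use over both groups, rose in 57.4% of all 408 events and in 66.9% of the 130 where that use was under 15%, a limit chosen after the values were seen. In Snrnp70 downstream, Prpf4b and Snrpb that mean use was 7.86%, 8.24% and 12.6%. In the upstream Snrnp70 event, which had the same pattern, it was 38.5%, well above that limit. The part of rarity in the rise was not tested.

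**Figure D4:**
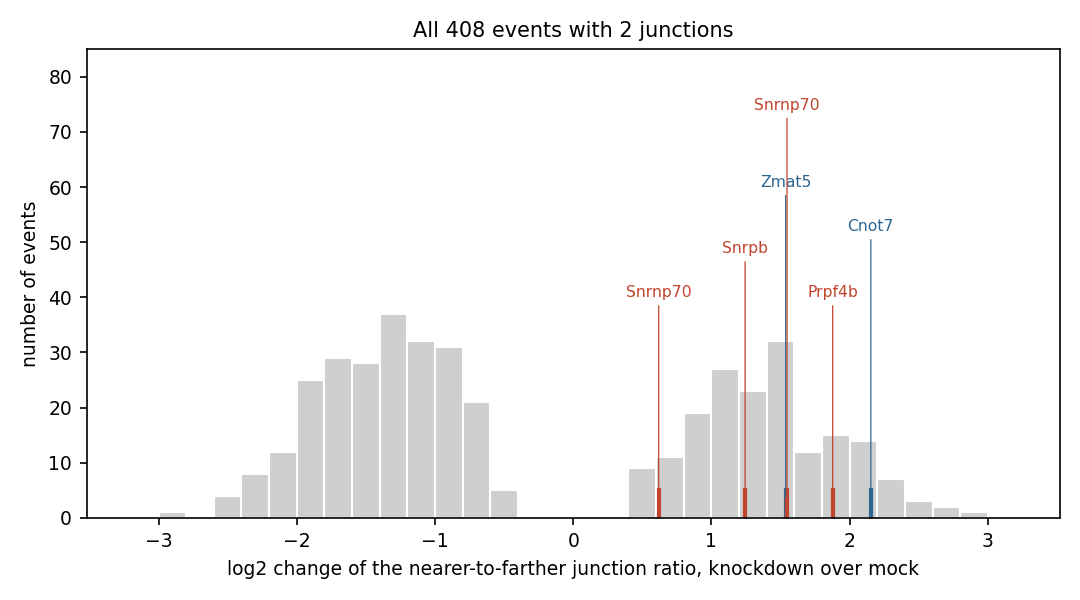
Histogram of the log2 change of the nearer-to-farther junction ratio, knockdown over mock (x axis), over all 408 events of 2 junctions (number of events, y axis). Red marks are the Snrnp70, Snrpb and Prpf4b events and blue marks other genes of the RNA processing lists. All 6 marks lie on the positive side, where 42.9% of the events lie.

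Exon lengths differed between and within the genes. The median exon was 93 nt (interquartile range 58 to 129) over the 330 events in which the nearer junction reaches an annotated exon inside the longer intron. The Snrnp70 exon of 1360 nt, left by the downstream junction, was far longer. The shortest Snrnp70 exon that the upstream junction enters (60 nt) lay within that range, as did the Prpf4b and Snrpb exons at 106 and 122 to 124 nt. The skipping introns of Snrpb (1573 nt), Prpf4b (1597 nt) and Snrnp70 (2985 nt) were shorter than the median of 3814.5 nt over the 408 events, and within the interquartile range of 1464 to 8332.5 nt. The Cstf2 exons of 60 and 87 nt and the Snrnp70 exon of 60 nt have lengths that are multiples of 3, and the Prpf4b exon, both Snrpb forms and the Snrnp70 exon of 1360 nt do not. No other annotated gene overlaps the listed introns of any of the 4 genes.

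Related genes were looked up in 8 lists of 182 genes of snRNPs, spliceosome step factors, kinases, 3' end formation and RNA decay, written with earlier results of these data known. Besides the 4 genes above, which were chosen for having an event, 4 of the other 178 had one: Cnot7, Ddx6, Sf3a2 and Zmat5. That is 2.25%, near the 1.87% of all 21924 annotated protein-coding genes with an event in the table under their current symbol. Leaving out genes chosen for having an event lowers the share of the lists, and with them 8 of the 182 had one. The shares were not compared by a test. How many genes were expressed highly enough to be tested is not known. The list of 29 factors of the Prp19 complex and of the splicing steps, which includes Pqbp1, had 0 genes with an event, a count that a share of this size does not set apart. Both events of 2 junctions in the other genes moved to the nearer junction, as did the 4 described above, against 42.9% over the table. In Zmat5 this was a choice between donors 9 nt apart and not the inclusion of an exon. These counts were not tested.

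The list of 58 genes of RNA decay and of the exon junction complex contributed 2 of these genes. In Cnot7, a deadenylase of the CCR4-NOT complex, an unannotated junction had a log2 fold of 2.10 and the annotated one -0.05 in the authors' deposited table (p = 0.0302). Its inferred use was 1.01% in mock and 4.34% in knockdown, lower than for any of the 4 events above. In Ddx6, an RNA helicase of decapping complexes, 1 of 4 junctions to a shared acceptor passed, with a log2 fold of -0.81 in the authors' deposited table (p = 0.0418), and it is not annotated.

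Of the other snRNP genes, Sf3a2, a U2 snRNP protein, had 3 junctions to a shared acceptor. The one with the shortest intron had a log2 fold of -2.35 in the authors' deposited table (p = 0.0357), and the others 0.09 and 0.11 (p = 0.167 and 0.943). Zmat5, a protein of the minor spliceosome, chose between donors 9 nt apart. The annotated donor was at 2.90 times the mock ratio relative to the unannotated one, with log2 folds of 0.93 and -0.61 in the authors' deposited table (p = 0.0215). In neither of the events of 2 junctions of Cnot7 and Zmat5 was the rising junction annotated in non-coding or decay transcripts alone, the pattern found in all 4 events of Snrnp70, Snrpb and Prpf4b. The difference between these counts was not tested.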

How the data were processed

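PolyA RNA libraries of 5 samples were made with the PrepX mRNA kit, per the labels' protocols, and the submitters' processing notes name TopHat2 2.0.4 and the mm10 build. The methods of counting, testing and filtering junctions were not given in the sources used here. Deposited by the authors were a p-value and a log2 fold per junction, per the file headers. The header names no adjustment. Sequencing depth and its precision are unknown. Gene names were filled downwards within an event, and 1 event has no name.

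Start and end were each moved by 1 base, which makes 1179 of 1402 junctions equal to a GENCODE M21 intron (same assembly). For 2 junctions, the change was computed by subtracting the log2 fold of the longer intron from that of the shorter. Equal p was judged to a relative tolerance of 1e-06. Exons and sequences were read from the transcripts with Python 3.11.15 and pandas 2.3.3. The inferred use of 2 junctions and the Benjamini-Hochberg adjustment were tested on simulated data. All junctions of the members, and every list gene with an event, are named, and 1 item is not reported here. Members and lists were chosen with earlier results of these data known.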

Additional observations from a re-analysis of the deposited data

How the results depend on the processing

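With a p under 0.01, or with Benjamini-Hochberg adjustment over all junctions of the table at 0.05, 8 of the 10 junctions remained past the threshold. The 8 are those of Snrnp70, Snrpb and Prpf4b (adjusted p = 0.0450 to 0.0484, from the authors' p), and Cstf2 was at 0.0557. In all, 304 of 1389 junctions passed. Because the table holds events already chosen by p, this adjustment is too lenient. All 4 events of 2 junctions moved to the nearer junction also with annotated junctions alone or p under 0.01, and 3 of 3 with Snrnp70 counted once. These settings could not change the direction, since no event was removed by either filter and both Snrnp70 events moved the same way. By the log2 fold of the inclusion junction alone, the changes were 1.74 for Prpf4b, 1.43 and 0.38 for the downstream and upstream sides of Snrnp70, and 1.09 for Snrpb. As a difference of inferred use they were 8.87, 7.23, 10.1 and 9.10 percentage points in that order, so the upstream Snrnp70 event, the smallest on the log2 scale, was the largest in this measure. List genes with an event fell from 8 to 3 at p under 0.01, and stayed 8 with current symbols alone. Of the 11 junctions, 10 equal an annotated intron after adding 1 to start and end, against 0 as deposited and 0 with 1 added to the end alone.

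No paired analysis was possible because the table holds no values per sample. For the same reason leaving out each replicate was not run. Read depth behind the rare junctions is unknown, so how few reads their folds rest on is unknown too.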
